A study of Oryza sativa Japonica Group with 6 samples.

Results

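Transcript levels of 9 cyclin, cyclin-dependent kinase (CDK) and CDK inhibitor genes were examined in the endosperm of rice, which holds most of the grain's starch. They were CDKA1 (OS03G0118400), CDKA2 (OS02G0123100), CDKB1;1 (OS01G0897000), CDKB2;1 (OS08G0512600), CYCB1;1 (OS01G0805600), CYCB2;1 (OS04G0563700), CYCB2;2 (OS06G0726800), KRP1 (OS02G0762400) and KRP2 (OS06G0213700). They were taken by gene ID from a deposited table of 93655 features, and all 9 IDs were in it. RNA was sequenced from 3 libraries of an nf-yc11 mutant and 3 of wild type (WT), all from endosperm collected 7 days after pollination. The series title names the japonica cultivar ZH11, and the design sets the mRNA levels of the mutant against those of WT. The labels give neither the mutated locus nor the kind of allele, and they do not say whether replicates came from separate plants. The p-values below therefore cover only how far these libraries differ among themselves, and that difference may be technical.

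CDKs are protein kinases that are active only when bound to a cyclin, and the cell cycle is driven by the succession of such pairs. In plants, A-type CDKs act through the whole cycle, whereas B-type CDKs and B-type cyclins are made around mitosis. KRP proteins (Kip-related proteins) bind cyclin-CDK complexes and inhibit them. Endosperm first divides its nuclei without forming walls, then forms cells that go on dividing, and later replicates DNA without division while the grain fills.

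Expression was given as FPKM, a count of sequenced fragments scaled for transcript length and for sequencing depth, so that levels can be compared between genes. The totals behind the values ranged from 15735968 to 16989039 reads in the nf-yc11 libraries and from 14593215 to 21984785 reads in the WT libraries, and the reads behind each value could be worked out. Summed levels of 3 endosperm markers (GBSSI, FLO4 and GluA1) were 16013 to 16303 FPKM in nf-yc11 and 20031 to 20456 FPKM in WT. Endosperm transcripts were thus abundant in both groups. Each of the 3 was called lower, as were 19.3% of all features by the test given below. The feature OS05G0304800, paired with NF-YC11 from general knowledge of rice genes, had 106, 111 and 112 FPKM in nf-yc11 libraries, against 125, 124 and 130 FPKM in WT libraries. OS10G0191900, paired with NF-YC12 in the same way, had 191 to 194 FPKM in nf-yc11 and 741 to 762 FPKM in WT. Neither pairing is in the gene table used for names, so these levels do not show which gene carries the mutation, and the name nf-yc11 is used here as the label has it.

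Of the 9 genes, CDKA2 and CDKB1;1 were higher in nf-yc11, CYCB1;1 was lower, and 5 did not pass the test. KRP2 was too low to be tested. CDKA2, an A-type kinase, was 1.69-fold higher, CDKB1;1 was 1.17-fold higher, and CYCB1;1 was 1.31-fold lower. Folds are ratios of mean FPKM, whereas the log2 changes of the test are of FPKM + 1. The test was limma on log2(FPKM + 1) with Benjamini-Hochberg adjustment over all 22093 features that averaged 1 FPKM or more, and an adjusted p under 0.05 was taken as a call. Of all these features 49.1% were called, 29.8% as higher and 19.3% as lower, so the 3 called genes of 8 tested, or 37.5%, were not more than the share in the whole table. The median log2 change was −0.02 over the 8 genes and 0.06 over all features. In bulk RNA, fewer cells of a kind and less RNA per cell cannot be told apart.

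**Figure D1:**
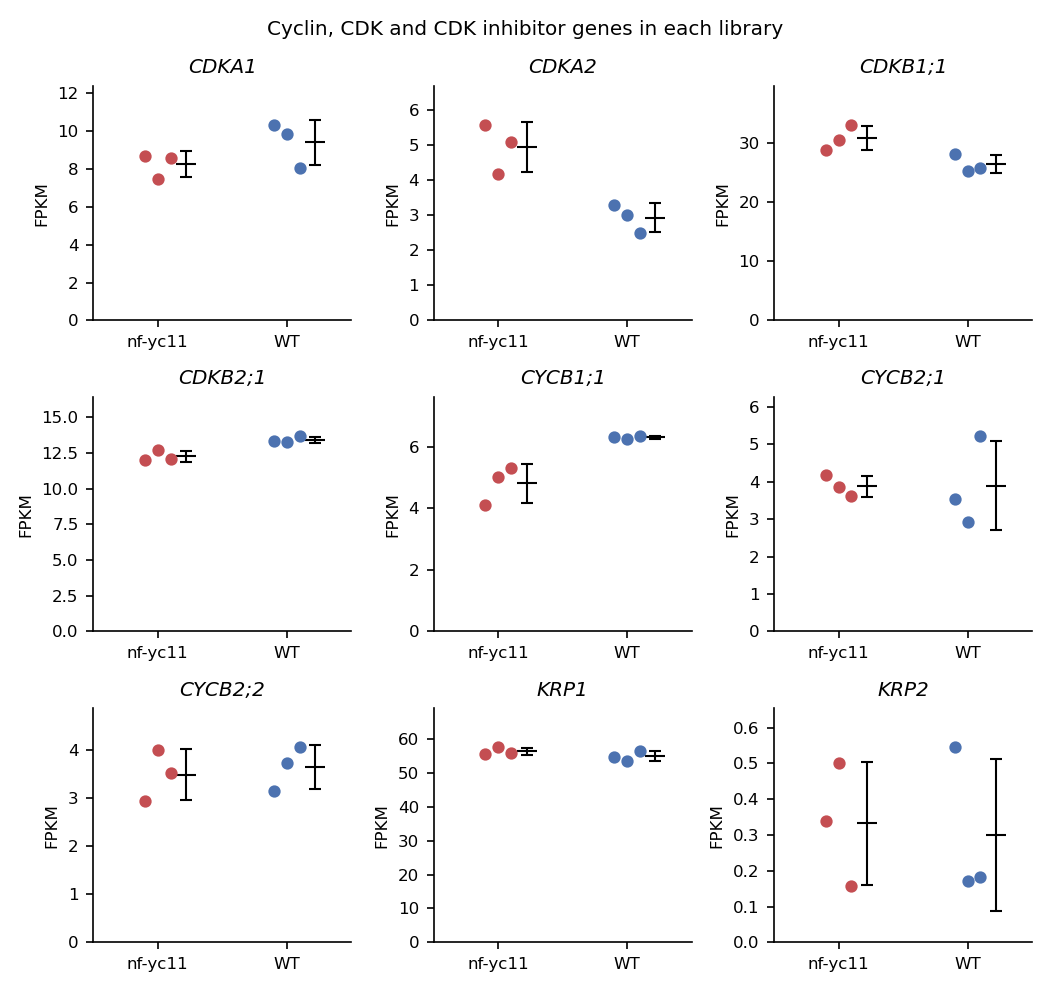
FPKM of each of the 9 genes (vertical axes, each from 0) in the 3 nf-yc11 and 3 WT libraries (points), with the group mean and SD beside them. The nf-yc11 points lie above the WT points for 2 genes (CDKA2 the clearest), below them for 2 (CYCB1;1 the clearest), and among them for the other 5.

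KRP1 was the most abundant of the set and KRP2 the least. In nf-yc11 libraries the mean levels were 56.3 FPKM for KRP1, 30.9 for CDKB1;1, 12.3 for CDKB2;1, 8.25 for CDKA1, 4.95 for CDKA2, 4.81 for CYCB1;1, 3.88 for CYCB2;1, 3.48 for CYCB2;2 and 0.332 for KRP2. In WT libraries the same genes, in the same sequence, averaged 54.9, 26.5, 13.4, 9.41, 2.93, 6.31, 3.89, 3.64 and 0.30 FPKM. The order was thus the same in both groups except for CDKA2, which stood above all 3 cyclins in nf-yc11 and below them in WT. The 4 most abundant genes and KRP2 did not overlap with their neighbours in either group. In nf-yc11, CDKA2 and the 3 cyclins each overlapped with the next in the order. In WT, CYCB1;1 stood clear, while both B2 cyclins overlapped with each other and CDKA2 overlapped with CYCB2;2. Over all 6 libraries, the mean level of KRP1 was above 89.9% of the tested features, that of the first B-type kinase above 80.9%, and that of the last cyclin above 30.2%.

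The A-type kinases were examined first, since they serve both DNA synthesis and mitosis. CDKA2 had 5.58, 4.18 and 5.08 FPKM in nf-yc11 libraries 1 to 3, against 3.30, 3.02 and 2.48 FPKM in the WT libraries. Every nf-yc11 library was above every WT library, and these values rest on 92 to 121 reads in nf-yc11 and 50 to 100 reads in WT. The rise was 0.59 ± 0.12 on the log2 scale (SE, adjusted p = 0.00704, limma), with a 95% interval of 0.30 to 0.89. On the log2(FPKM + 1) scale the change of so low a gene is understated, and voom on the recovered reads gave 0.72.

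CDKA1, the other of the pair, had 8.70, 7.47 and 8.58 FPKM in nf-yc11, against 10.3, 9.82 and 8.08 FPKM in WT. The groups overlapped through WT replicate 3, and the log2 change of −0.17 ± 0.10 did not pass (adjusted p = 0.215, limma), with an interval of −0.41 to 0.07. The level of CDKA1 over that of CDKA2 was 1.56, 1.79 and 1.69 in nf-yc11 libraries, against 3.13, 3.25 and 3.25 in WT libraries. This ratio, which does not depend on the library's total, did not overlap between the groups. The sum of both was 13.2 ± 1.37 FPKM in nf-yc11 and 12.3 ± 1.59 FPKM in WT (SD, n = 3 each), and these sums overlapped. CDKA1 and CDKA2 are close relatives, so how the authors' counting shared reads between them is uncertain. The lengths that the FPKM values were divided by were also unlike, at 789 bases for CDKA1 and 1379 for CDKA2, and whether the shorter gene model is complete is not known. In nf-yc11 the pair had similar reads, 94 to 115 a library for CDKA1 and 92 to 121 for CDKA2. In nf-yc11 replicates 1 and 3, CDKA1 had the fewer reads and was the higher only through its length. In nf-yc11 replicate 2 it had 94 reads, against 92 for CDKA2. The lengths bear on the order and the ratio's level but not on the fold by which the ratio differed between groups.

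Of the 5 mitotic genes, which are kinases and cyclins of the B type, 1 rose, 1 fell and 3 did not pass, against 49.1% of all features called. Their median log2 change was −0.05. Under each of 3 scalings between libraries (size factors, TMM factors and quantile normalization) none was called higher and 2 were called lower, so calls in both directions were not found under these scalings. CDKB1;1, a kinase of the plant-specific B type, had 29.0, 30.6 and 33.1 FPKM in nf-yc11 libraries, against 28.2, 25.4 and 25.8 FPKM in WT libraries. The groups did not overlap, although nf-yc11 replicate 1 and WT replicate 1 were close, and their Poisson intervals of 26.6 to 31.4 FPKM and 26.3 to 30.3 FPKM met. The values rest on 572 to 706 reads in nf-yc11 and 473 to 778 reads in WT. The log2 change was 0.22 ± 0.06 (adjusted p = 0.0297, limma), and it did not pass under any of these 3 scalings, where it was 0.13 to 0.14 (adjusted p 0.115 to 0.132, limma). It also ended without nf-yc11 replicate 2 (adjusted p = 0.0620, limma), nf-yc11 replicate 3 (0.0869), WT replicate 2 (0.0940) or WT replicate 3 (0.0844).

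CDKB2;1, the other B-type kinase, had 12.0, 12.7 and 12.1 FPKM in nf-yc11, against 13.3, 13.3 and 13.7 FPKM in WT. The groups did not overlap, but the log2 change of −0.12 ± 0.05 did not pass (adjusted p = 0.0799, limma), with an interval of −0.24 to −0.005. Under the 3 scalings it did, at −0.19 (adjusted p 0.0173 to 0.0191, limma). The first B-type kinase over the second stood at 2.41, 2.40 and 2.75 in nf-yc11 libraries, against 2.11, 1.91 and 1.89 in WT libraries. This ratio, too, does not depend on the library's total. That it did not overlap between the groups follows from its parts, since CDKB1;1 lay above all WT libraries and CDKB2;1 below them. The ratio was not tested and adds no evidence beyond these genes.

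**Figure D2:**
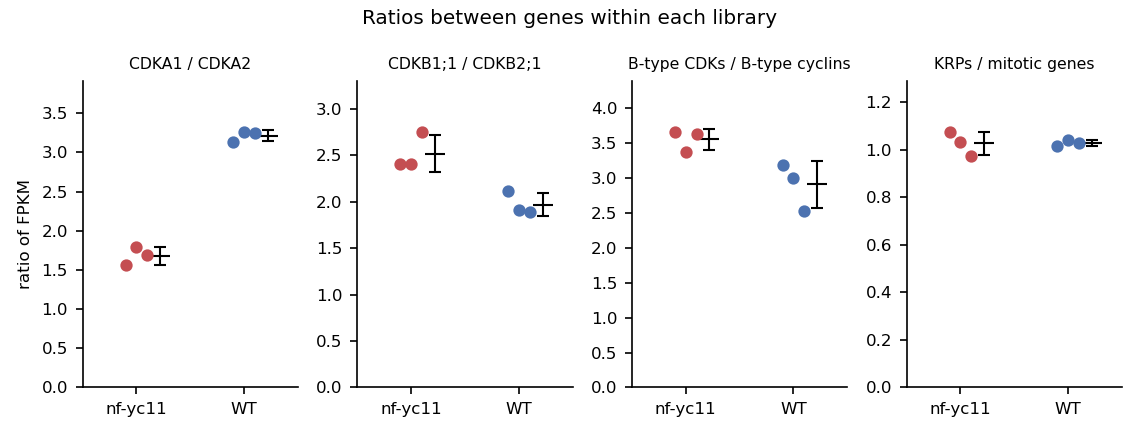
Ratios of FPKM within each library (vertical axes, each from 0) for the 3 nf-yc11 and 3 WT libraries (points), with the group mean and SD beside them. The ratio of CDKA1 to CDKA2 is lower in nf-yc11 (1.56 to 1.79, against 3.13 to 3.25 in WT), both B-type ratios are higher in nf-yc11, and the ratio of KRPs to mitotic genes overlaps.

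CYCB1;1, a B-type cyclin often used to mark dividing cells, had 4.11, 5.01 and 5.32 FPKM in nf-yc11, against 6.33, 6.25 and 6.35 FPKM in WT. All nf-yc11 libraries were below all WT libraries. These values rest on 81 to 113 reads in nf-yc11 and 116 to 174 reads in WT. The log2 change was −0.34 ± 0.09 (adjusted p = 0.0211, limma), with an interval of −0.55 to −0.12. The WT values lay closer together than counting error alone would place them: the exact Poisson interval of WT replicate 1, from 174 reads, was 5.42 to 7.34 FPKM. Without WT replicate 1, 2 or 3 the adjusted p was 0.0580, 0.0544 or 0.0577 (limma), with log2 changes of −0.33, −0.34 and −0.33.

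The 2 B-type cyclins of the other subclass overlapped between the groups. CYCB2;1 had 4.17, 3.85 and 3.61 FPKM in nf-yc11, against 3.55, 2.91 and 5.22 FPKM in WT, so its WT libraries lay both below and above all nf-yc11 libraries. The Poisson intervals of WT replicate 2 (74 reads, 2.28 to 3.65 FPKM) and WT replicate 3 (124 reads, 4.34 to 6.22 FPKM) did not meet. Its log2 change was 0.02 ± 0.17 (adjusted p = 0.923, limma), with an interval of −0.38 to 0.42. That sign is not fixed: it was −0.13 without WT replicate 2, −0.02 without WT replicate 1 or nf-yc11 replicate 1, and −0.04 to −0.01 under the 3 scalings.

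CYCB2;2 had 2.94, 3.99 and 3.52 FPKM in nf-yc11, against 3.15, 3.72 and 4.05 FPKM in WT. Its log2 change was −0.05 ± 0.12 (adjusted p = 0.743, limma), and it was 0.04 without nf-yc11 replicate 1 and 0.01 without WT replicate 3. Its interval, −0.34 to 0.23, reaches the fall measured for the B1 cyclin. Summed, the 3 B-type cyclins of the set had 11.2, 12.8 and 12.4 FPKM in nf-yc11, against 13.0, 12.9 and 15.6 FPKM in WT. The nf-yc11 sums were all below the WT sums, with nf-yc11 replicate 2 just under WT replicate 2. The summed B-type kinases over the summed B-type cyclins gave 3.65, 3.37 and 3.63 in nf-yc11 libraries. In WT libraries they gave 3.19, 3.0 and 2.53, without overlap. This ratio was not tested, and it holds both CDKB1;1 and CYCB1;1. Its lowest value was in WT replicate 3, where CYCB2;1 was at 5.22 FPKM.

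Of the inhibitors, KRP1 had 55.6, 57.5 and 55.8 FPKM in nf-yc11, against 54.7, 53.4 and 56.5 FPKM in WT. KRP1 is known in rice for reducing endosperm cell division and seed filling when overexpressed. The groups overlapped. At 1043 to 1522 reads a library, KRP1 was the best measured of the 9 genes. Its log2 change of 0.04 ± 0.04 did not pass (adjusted p = 0.437, limma). With the values as deposited, its interval of −0.05 to 0.12 was narrower than those of the other 7 tested genes. Its sign flipped under the 3 scalings, to −0.04 with size factors or TMM factors and −0.07 with quantile normalization. The last value lies outside that interval, which does not cover the choice of scaling.

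KRP2 was near the limit of detection. It had 4, 6 and 2 reads in nf-yc11, against 9, 2 and 2 reads in WT, which gave 0.339, 0.501 and 0.157 FPKM in nf-yc11 and 0.546, 0.171 and 0.183 FPKM in WT. A floor of 3 reads on its 750 bases was 0.235 to 0.254 FPKM in nf-yc11 and 0.182 to 0.274 FPKM in WT, so 3 of the 6 libraries were under it. No difference in KRP2 was detectable at this depth. With no filter on low values its log2 change was 0.04 ± 0.15 (adjusted p = 0.869, limma).

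The mitotic genes and the inhibitors were then set against each other, as sums of FPKM and without a test. The 5 mitotic genes summed to 52.2, 56.2 and 57.6 FPKM in nf-yc11, against 54.6, 51.5 and 55.1 FPKM in WT. The KRP sum, nearly all of it KRP1, was 56.0, 58.0 and 56.0 FPKM in nf-yc11, against 55.3, 53.6 and 56.7 FPKM in WT. KRP over mitotic transcripts was 1.07, 1.03 and 0.972 in nf-yc11 libraries and 1.01, 1.04 and 1.03 in WT libraries. Both sums and their ratio overlapped between groups. CDKB1;1 was the largest term of the mitotic sum in every library. The 2 B-type kinases alone summed to 41.0, 43.3 and 45.2 FPKM in nf-yc11, against 41.5, 38.6 and 39.5 FPKM in WT, and these sums overlapped through WT replicate 1. Over the summed A-type kinases they stood at 2.87, 3.72 and 3.31 in nf-yc11 libraries and at 3.05, 3.01 and 3.74 in WT libraries, again with overlap.

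Non-overlapping groups are common in this table. They were found for 59.7% of all tested features, with nf-yc11 above WT in 35.3% and below WT in 24.4%. Among the 8 genes tested here they were found for 4, both ways for 2 genes each.

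Other genes of the cell cycle machinery were read from lists of IDs whose names could be placed in a RefSeq gene table. Of 22 such genes, 5 were higher in nf-yc11, 3 lower and 10 not called, and 4 were too low to be tested. That is 44.4% of the 18 tested, against 49.1% of all features. Their median log2 change was 0.07, against 0.06 over all features.

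Of 9 other cyclins, 4 were too low and 5 were tested. Of these 5, 3 rose, none fell and 2 did not pass, against 29.8% of all features called higher and 19.3% called lower. The 9 include 2 further B-type cyclins, CYCB1;3 and CYCB1;5, and both were too low to be tested. CYCB1;3 averaged 0.0693 FPKM over the 6 libraries, and CYCB1;5 had 0 FPKM in each. CYCA3;1, of an A-type class linked to DNA synthesis, had 16.2, 14.3 and 14.0 FPKM in nf-yc11, against 8.14, 7.94 and 7.47 FPKM in WT. The mean FPKM was 1.89-fold higher, and the groups stood far apart. The log2 change of FPKM + 1 was 0.84 ± 0.07 (adjusted p = 0.000151, limma). CYCD5;3, a D-type cyclin and the most abundant of the 9, rose 1.18-fold to 46.8 ± 1.99 FPKM in nf-yc11, against 39.6 ± 1.22 FPKM in WT (adjusted p = 0.00555, limma). With quantile normalization it no longer passed (adjusted p = 0.0565, limma). CYCH1;1, the cyclin partner of CDK-activating kinase, was at 10.2 ± 0.466 FPKM in nf-yc11 and 8.35 ± 1.06 FPKM in WT (adjusted p = 0.0484, limma), a call that ended in 10 of 15 alternatives.

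Among 6 CDKs of other types, 1 rose, 2 fell and 3 did not pass, against 49.1% of all features called. CDKD1, a CDK-activating kinase that phosphorylates other CDKs, had 21.0, 20.1 and 21.3 FPKM in nf-yc11, against 17.2, 16.7 and 17.5 FPKM in WT (log2 change 0.27 ± 0.05, adjusted p = 0.00304, limma). CDKG1 had 4.27, 4.76 and 5.78 FPKM in nf-yc11, against 9.10, 9.20 and 8.69 FPKM in WT. It fell by 0.76 on the log2 scale (adjusted p = 0.000992, limma), and its relative CDKG2 fell by 0.28 (adjusted p = 0.0202, limma), a call that ended without nf-yc11 replicate 1 or 2 or WT replicate 2 or 3. G-type CDKs are known from Arabidopsis for roles in splicing and meiosis. CDKC2, the most abundant of the 6, was at 55.4 ± 1.04 FPKM in nf-yc11 and 56.7 ± 0.914 FPKM in WT and did not pass (adjusted p = 0.481, limma). Under the 3 scalings it was called lower, at −0.14 to −0.11 (adjusted p 0.0109 to 0.0414, limma).

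Among 7 other inhibitors and regulators, 1 rose, 1 fell and 5 did not pass. This was 28.6% called, against 49.1% of all features. RBR2, a retinoblastoma-related protein that holds back entry into DNA synthesis, had 10.6, 11.3 and 10.3 FPKM in nf-yc11, against 14.3, 14.0 and 14.1 FPKM in WT. It fell by 0.37 on the log2 scale (adjusted p = 0.00140, limma), without overlap. WEE1, a kinase that inhibits CDKs by phosphorylation, was at 4.67 ± 0.448 FPKM in nf-yc11 and 3.60 ± 0.419 FPKM in WT (log2 change 0.30 ± 0.10, adjusted p = 0.0454, limma), a call that ended in 10 of 14 alternatives. CKS1, the small subunit that docks on CDKs and the most abundant of the list, was at 62.6 ± 4.55 FPKM in nf-yc11 and 57.5 ± 3.43 FPKM in WT and did not pass (adjusted p = 0.180, limma), though it was called higher with the replicate number as a block (adjusted p = 0.0470, limma). The inhibitor genes KRP3 and KRP4, named after their values were seen, also did not pass. KRP3 was at 7.21 ± 0.365 FPKM in nf-yc11 and 7.82 ± 0.819 FPKM in WT, and KRP4 at 23.5 ± 1.93 FPKM in nf-yc11 and 23.5 ± 1.82 FPKM in WT.

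**Figure D3:**
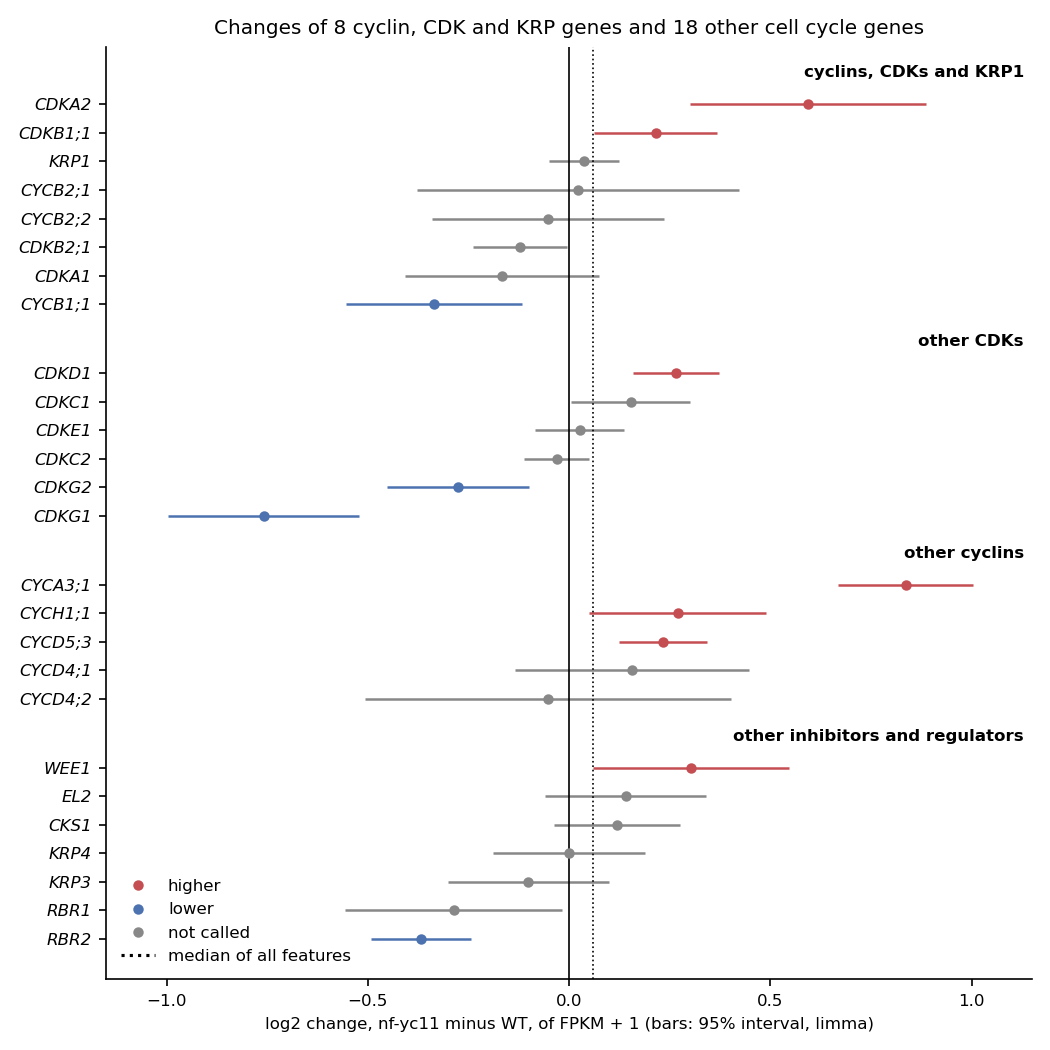
Log2 change of FPKM + 1, nf-yc11 minus WT (horizontal axis), with 95% intervals from limma, for the 8 tested cyclin, CDK and KRP genes and 18 other cell cycle genes. CYCA3;1 (0.84) and CDKA2 (0.59) lie farthest to the right and CDKG1 (−0.76) farthest to the left, and the dotted line marks the median of all features, 0.06.

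Profiles over the 6 libraries were compared by the root mean square difference of log2(FPKM + 1), each taken relative to the gene's own WT mean, among 25 candidate genes. The gene nearest to CDKB1;1 was CYCD4;1, a D-type cyclin, at a difference of 0.0698. CDKD1 (0.0767) and CDKC1 (0.0803) were nearly as close. CYCD4;1 rests on 30 to 62 reads a library, and at so low a level its changes are understated on this scale. Nearest to CYCB1;1 was RBR2 (0.102). Nearest to KRP1 was CDKE1 (0.0468), whose Arabidopsis counterpart is a kinase of the Mediator complex that acts in transcription. CDKE1 was at 30.3 ± 0.947 FPKM in nf-yc11 and 29.8 ± 1.14 FPKM in WT and did not pass (adjusted p = 0.663, limma). The D-type cyclin was at 1.96 ± 0.195 FPKM in nf-yc11 and 1.66 ± 0.303 FPKM in WT and did not pass either (adjusted p = 0.328, limma).

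Markers of embryo and aleurone, of the embryo meristem and of green pericarp were read beside these results. Of 3 embryo and aleurone markers (OLE18, RAB21 and LEA3), 2 fell and none rose, while 19.3% of all features were called lower. RAB21 and LEA3 changed by −0.15 each on the log2 scale. The sum of the 3 markers was 2701 to 2867 FPKM in nf-yc11 and 2503 to 2825 FPKM in WT. Most of it was OLE18 (mean 2442 FPKM in nf-yc11 and 2302 FPKM in WT), which did not pass. OSH1, a gene of the embryo's shoot meristem, was at 0.735 to 1.33 FPKM in nf-yc11 and 0.654 to 1.10 FPKM in WT and was too low to be tested. The 2 pericarp markers CAB1R and CAB2R summed to 1356 to 1497 FPKM in nf-yc11 and 1538 to 1555 FPKM in WT. CAB1R fell. CAB2R, which was most of the sum, overlapped between the groups and did not pass (mean 1143 FPKM in nf-yc11 and 1107 FPKM in WT). Endosperm marker levels were lower in nf-yc11, as given above. The part of these levels in the cyclin and CDK results was not tested.

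**Figure D4:**
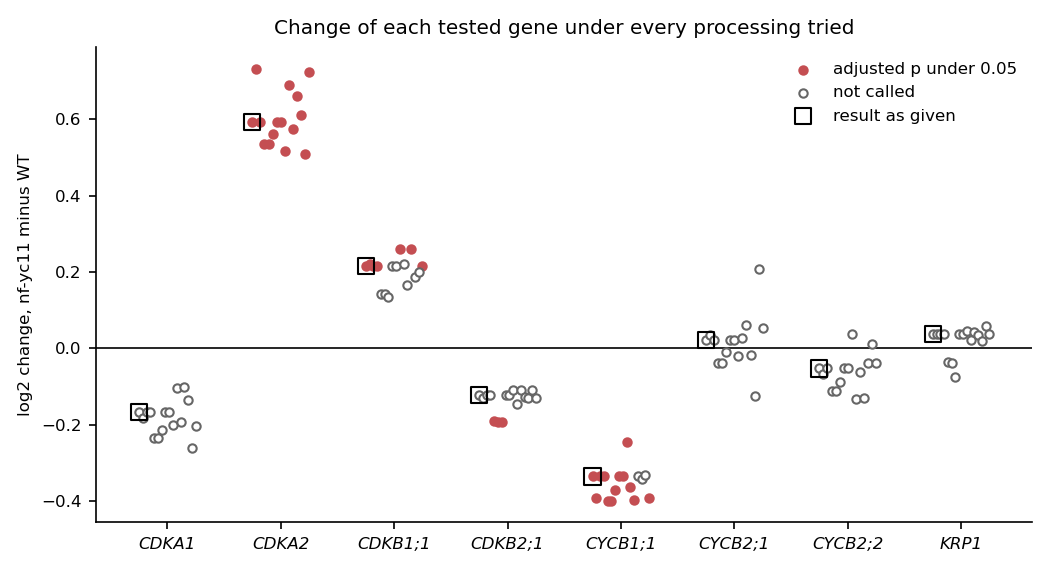
Log2 change, nf-yc11 minus WT (vertical axis), of each of the 8 tested genes in the result as given (square) and in each alternative way of processing or left-out library (points, filled where the adjusted p was under 0.05). CDKA2 stays filled throughout, between 0.51 and 0.73, while CDKB1;1 is filled in 6 of 15 alternatives, CYCB1;1 in 12 and CDKB2;1 in 3.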

How the data were processed

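FPKM values of the 6 libraries came from 1 table that the authors deposited. RNA was isolated with TRIzol and sequenced after a standard Illumina preparation, per the labels' protocols. CASAVA 1.7, HISAT2 2.0.5 and DESeq are listed, per the submitters' processing notes, without a role. Not given in the sources used here were the counting tool, the build and the annotation, and coordinates were not used. Libraries were grouped by the genotype in the labels, 3 of nf-yc11 and 3 of WT. Whole reads within 0.0001 were recovered for 36189 of 36189 features above 0, from the steps in the FPKM values. Poisson intervals (95%) and the floor of 3 reads cover counting error only.

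The limma package (3.58.1, R 4.3.3) was fitted to log2(FPKM + 1) with a trend in the variance. The fit was also run on simulated data, whose changes were larger than those measured for the cyclin, CDK and KRP genes. That run therefore does not cover changes as small as theirs. An exact permutation test of 3 against 3 cannot go below p = 0.1. Python 3.11.15, numpy 2.4.6, pandas 2.3.3 and matplotlib 3.10.9 were used. Alternatives were a pseudocount of 0.1, no filter or 5 FPKM, size factors, TMM factors, quantile normalization, no variance trend, the replicate block, voom on recovered reads and each library left out.

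The 9 genes, the lists and the tests were chosen with earlier results of these data known. Symbols were checked by chromosome and position within 3 Mb in RefSeq assembly ASM3414082v1, which holds no RAP IDs: 9 of 9 genes, 22 of 36 list genes and 9 of 13 markers were in place, and the others were left out. CYCB1;1 is there also a synonym of CYCB1-3. Named from each list were the most abundant gene and up to 4 called genes with the smallest p.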

Additional observations from a re-analysis of the deposited data

How the results depend on the processing

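Leaving out a library gave 9093 to 9669 changed features. The split between directions moved with the scaling: of all calls, 60.8% were higher in nf-yc11 as deposited, with 6586 higher and 4256 lower, against 5434 higher and 5296 lower by size factors, 5430 and 5303 by TMM, and 5403 and 5273 by quantiles. These scalings moved the log2 changes by a median of −0.07, −0.07 and −0.05. CDKA2 was called in 14 of 14 alternatives (at least 5 FPKM leaves it out), with log2 changes of 0.51 to 0.73, and CDKA1 in 0 of 15 (−0.26 to −0.10, adjusted p 0.0524 to 0.483, limma).

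Of the 9 genes, 1 in place of 2 was called higher with at least 5 FPKM (CDKA2 left out), the 3 scalings, no variance trend and the replicate block, and 1 to 2 when a library was left out. Called lower were 2 in place of 1 under the 3 scalings, and 0 to 1 when a library was left out. CDKB1;1 ended with size factors (log2 change 0.14, adjusted p = 0.115, limma), TMM factors (0.14, 0.121), quantile normalization (0.13, 0.132), no variance trend (0.22, 0.0509) and the replicate block (0.22, 0.0664), and without single libraries it was 0.17 to 0.26. CDKB2;1 passed with size factors (−0.19), TMM factors (−0.19) and quantile normalization (−0.19), and ranged from −0.15 to −0.11 with a library left out. CYCB1;1 ranged from −0.40 to −0.25, CYCB2;1 from −0.13 to 0.21, CYCB2;2 from −0.13 to 0.037 and KRP1 from 0.02 to 0.06 in the same way. The sign of CYCB2;1 turned with size factors (−0.0373), TMM factors (−0.0375) and quantile normalization (−0.0109), and that of KRP1 with the same (−0.0371, −0.0373 and −0.0746). These 2 genes passed in no alternative. Size and TMM factors multiply all genes of a library alike, and quantile normalization does not. Why the other calls changed was not tested.

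Of the 22 list genes, 8 were called, 5 to 8 with a library left out (5 without nf-yc11 replicate 1, WT replicate 2 or WT replicate 3), and 11 of all 36 IDs as first written, a choice made after seeing the data. CDKE1 turned to −0.0462 with size factors, −0.0465 with TMM factors and −0.0625 with quantile normalization, and lay between −0.00401 and 0.0520 with a library left out. KRP4 lay between −0.0630 and 0.0646 in the same way, and CKS1 reached −1.13e-05 with quantile normalization and passed with the replicate block (0.12, adjusted p = 0.0470, limma). Of 238 alternative values for the 16 other named genes, 201 kept direction and side of the threshold. Deviations of same-numbered libraries correlated at −0.0505 to 0.0042, against −0.0569 to 0.109 for other pairs. No library correlated best with its own number, so the numbers are not shown to pair the libraries. With 25 reads in all, KRP2 is limited by depth.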
